A study of Mus musculus with 3 samples.

Results

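Brown adipocyte (BA) nuclei of sham-operated and of untreated mouse interscapular brown adipose tissue (BAT) were compared gene by gene, and the same ratio in endothelial cell (EC) nuclei of the same libraries served as background. A nucleus was taken as a BA nucleus if it held at least 3 UMIs (unique molecular identifiers, each counting 1 captured RNA molecule) of the adipocyte genes Adipoq, Plin1, Pparg, Cidea and Ppara. It also had to hold at least 4 times as many of these as of the endothelial genes Pecam1, Flt1, Kdr, Ptprb, Cyyr1 and Adgrl4, and no UMI of the white adipocyte genes Slc7a10, Trhde, Nnat and Retn. This rule gave 4355 untreated and 3163 sham BA nuclei, 7518 in all, of the 25819 barcodes of both libraries that showed 200 or more genes and no more than 50% of UMIs from mitochondrial genes. The mirrored rule gave 4512 untreated and 4701 sham EC nuclei. The whole series holds 44897 barcodes, of which 36281 passed the limits on genes and mitochondrial UMIs.

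The series holds 3 single-nucleus libraries of BAT from adult wild-type C57Bl6 mice, labelled as sham operation, non-treatment and denervation. Per the study's methods, 8-week-old male C57BL/6J mice were used, and nuclei were sorted from the floating layer of digested BAT, which holds lipid-laden BAs with fragments of vessels. The untreated and the denervated tissue came from 20 mice each. Denervation was done on 1 side in mice that were also given tamoxifen, and BAT was taken 3 days later. The number of mice behind the sham library, the time after the sham operation and any tamoxifen given to these mice are not given in the sources used here. Each condition is 1 library. Surgery, day of sampling, handling and sequencing run therefore cannot be told apart, no test was made, and each value carries a 95% interval that covers counting error only. The denervated library is given beside the other two for its levels only, and its BA nuclei, chosen by the same rule, numbered 4414.

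BAs burn fatty acids to make heat through Ucp1, a channel that lets protons re-enter the mitochondrial matrix without making ATP. They also build fatty acids from glucose and acetate by de novo lipogenesis (DNL), and they store glycogen. Sympathetic nerves drive them through beta-adrenergic receptors and cAMP, insulin promotes DNL through the transcription factors Srebf1 and Mlxipl (ChREBP), and glucocorticoids and fasting act on many of the same genes. The study asked how stem cell factor, the ligand encoded by Kitl and made by ECs, acts on BAs through its receptor c-Kit, encoded by Kit.

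Of the BA markers outside the rule, Ucp1 stood at 353 CPM (UMIs of the gene per 1000000 UMIs of the nuclei of that kind, mitochondrial genes left out) in untreated and 422 CPM in sham BA nuclei, against 102 and 84.7 CPM in EC nuclei. A Ucp1 UMI was found in 20.02% of untreated and 23.2% of sham BA nuclei thinned to 800 UMIs, so that the label rests on the rule and on levels over all nuclei. The thermogenic coactivator Ppargc1a stood at 288 and 198 CPM in BA nuclei and at 17.5 and 8.83 CPM in EC nuclei. Dio2 stood at 22.2 and 25.6 CPM in BA and at 0.324 and 0.982 CPM in EC nuclei. Cox8b separated them less, at 156 and 289 CPM in BA and 129 and 105 CPM in EC nuclei. The libraries differed in other ways than their labels. BA nuclei had a median of 1788 UMIs in the untreated and 1327 in the sham library, and mitochondrial genes took 3.14% and 6.31% of their UMIs. EC nuclei had a median of 656 and 538 UMIs, and mitochondrial genes took 10.1% and 13.6%. The filter on white adipocyte markers removed 5.53% of the untreated (4.89 to 6.23) and 21.3% of the sham adipocyte nuclei (20.1 to 22.6), and 11.3% of the denervated ones. Retn, which encodes the adipokine resistin, was also higher in sham EC nuclei, at 90.3 against 20.8 CPM. Of the BA nuclei, 17.8% of the untreated and 23.8% of the sham held a UMI of a defining marker of another cell type. If all endothelial marker UMIs in BA nuclei and all BA marker UMIs in EC nuclei were ambient RNA with the profile of the whole library, it would make up 11.9% and 11.1% of the UMIs of untreated and sham BA nuclei, and 40.2% and 37.6% of those of EC nuclei. The rule itself limits these marker UMIs, so these shares do not measure how much ambient RNA the nuclei held. All values given after ambient RNA was subtracted rest on these shares. The table of the sham library came without the header that names the pipeline in the other tables. Each pair of the 3 libraries shared 251 to 278 barcodes, 15 to 26 of them as BA nuclei in both. The part of these differences in the results was not tested.

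A gene is called tested if it reached 20 CPM in either library and was held against a line of 2-fold, with no statistical test. Of 8134 such genes, 740 were at least 2-fold higher in sham BA nuclei, or 9.1%, and 477 were at least 2-fold lower, or 5.86%. The median log2 ratio over all genes tested was 0.05, and 90% of the genes lay between −1.08 and 1.29. The limit of 20 CPM was reached in the sham library only by 360 of the 740 and in the untreated library only by 195 of the 477, so that these genes passed through the library in which they were high. Past 4-fold were 106 genes on the higher and 78 on the lower side. Under every alternative choice of nuclei, scaling and weighting, the genes on the higher side outnumbered those on the lower side. Long genes stood slightly lower than short ones, with a median of 0.17 in the shortest and −0.10 in the longest of 4 equal bins of gene length. In EC nuclei these medians were 0.01 and 0.08.

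**Figure D1:**
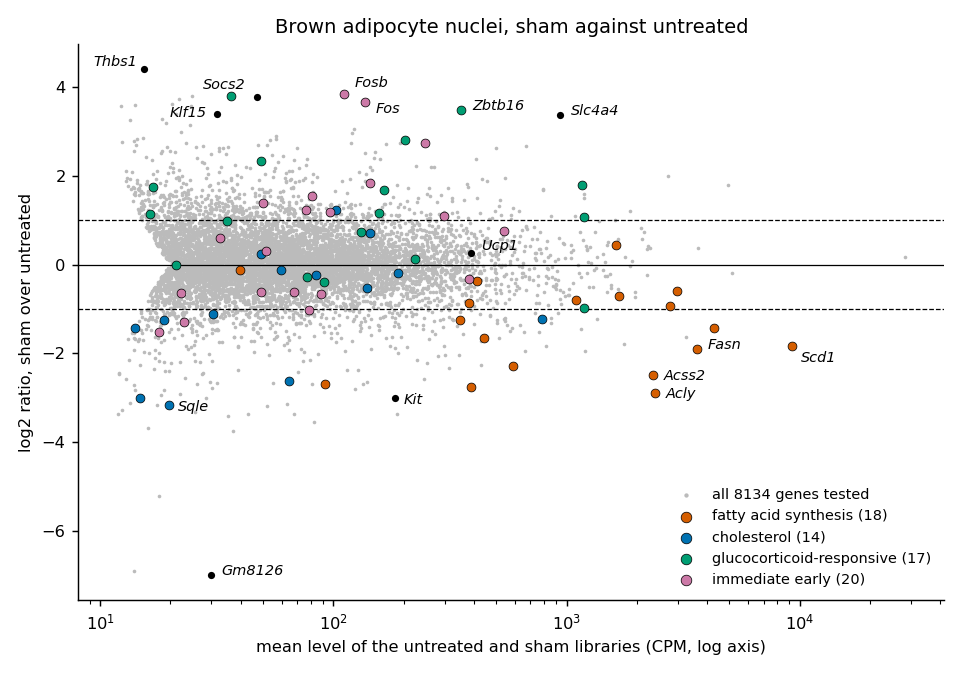
Log2 ratio of sham over untreated BA nuclei (y axis) against the mean level of both libraries in CPM (x axis, log scale) for all 8134 genes tested, with 4 gene lists in colour and dashed lines at 2-fold. Highly abundant genes of fatty acid synthesis such as Acly and Acss2 lie far below 0, while Zbtb16, Slc4a4, Fos and Fosb lie above 3.

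The genes of DNL formed the clearest group on the lower side. Of 20 genes listed, 18 were tested. Of these, 10 were at least 2-fold lower in sham BA nuclei and 0 at least 2-fold higher, beside 5.86% and 9.1% of all genes. The median log2 ratio was −1.34, beside 0.05 over all genes. Acly, which splits citrate to supply cytosolic acetyl-CoA (chr11:100476353-100528000, minus strand), stood at 4215 CPM in the untreated (4170 to 4260), 572 CPM in the sham (549 to 595) and 2383 CPM in the denervated library. Its log2 ratio of −2.88 (−2.94 to −2.82) is a 7.37-fold lower level. The untreated and sham levels were thus far apart for one of the most abundant transcripts of these nuclei, and the denervated level lay between them.

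Acss2, which makes acetyl-CoA from acetate, went from 3965 to 712 CPM, a log2 ratio of −2.48 (−2.53 to −2.42), with 3085 CPM in the denervated library. Acaca, the acetyl-CoA carboxylase of the cytosol, went from 6282 to 2320 CPM, a ratio of −1.44 (−1.47 to −1.41), and Fasn, the fatty acid synthase, from 5734 to 1530 CPM, a ratio of −1.91 (−1.94 to −1.87). The genes of each step from citrate or acetate to palmitate were therefore lower in the sham library. Scd1, the desaturase that makes monounsaturated fatty acids, was the most abundant gene of the list at 14423 CPM in untreated, 4043 CPM in sham and 15595 CPM in denervated BA nuclei, a ratio of −1.83 (−1.86 to −1.81). The related desaturase Scd2 went from 680 to 99.98 CPM, a ratio of −2.76 (−2.91 to −2.62).

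Transcripts of proteins that steer these enzymes were lower too. Srebf1 went from 671 to 215 CPM, a log2 ratio of −1.64 (−1.74 to −1.54), and stood at 681 CPM in the denervated library. Mlxipl, which missed the 2-fold line, went from 3671 to 1914 CPM, a ratio of −0.94 (−0.98 to −0.90). Mid1ip1, a partner that promotes the polymerization and activity of acetyl-CoA carboxylase, went from 159 to 24.9 CPM, a ratio of −2.68 (−2.98 to −2.39), and Me1, the malic enzyme that supplies NADPH, from 978 to 202 CPM, a ratio of −2.27 (−2.38 to −2.17). The last of the 10 was Elovl5, an elongase, at −1.24 (−1.35 to −1.14). Members of the list that stayed within 2-fold included Thrsp at −0.70 (−0.74 to −0.65) and the citrate carrier Slc25a1 at −0.87 (−0.96 to −0.77). Acacb, the carboxylase at the mitochondrial surface whose product restrains fatty acid import, was the one tested member above 0, at 0.44 (0.40 to 0.48).

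EC nuclei showed the same direction at much lower levels. Over the same list the EC median was −1.10, with Acly at 554 CPM in untreated and 144 CPM in sham EC nuclei and Fasn at 989 and 284 CPM. The adipocyte genes of the rule summed to 936 CPM in untreated and 771 CPM in sham EC nuclei, of which Pparg, a gene that endothelial cells of fat also express, made up 611 and 586 CPM. The mirrored rule itself limits these genes in EC nuclei, so these sums do not measure how much adipocyte RNA EC nuclei held. The part of adipocyte RNA in the EC ratios of the DNL genes was not tested. After ambient RNA was subtracted, the DNL median in BA nuclei was −1.35. The ratio of Acly was lower in BA than in EC nuclei by a difference of −0.93 (−1.10 to −0.77). For Fasn the difference was −0.11, with an interval from −0.22 to 0.01.

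**Figure D2:**
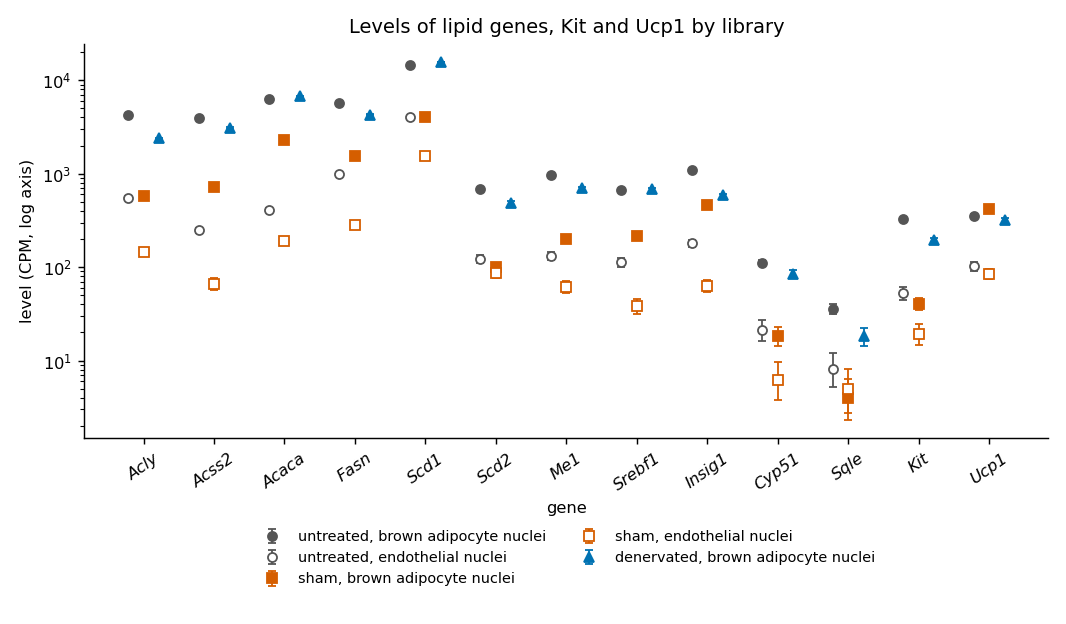
Levels in CPM (y axis, log scale) of 11 lipid genes, Kit and Ucp1, with exact 95% Poisson intervals for counting error. Filled symbols are BA nuclei of the untreated, sham and denervated libraries, and open symbols are EC nuclei of the untreated and sham libraries only. For Acly the filled symbols lie at 4215, 572 and 2383 CPM, whereas for Ucp1 they lie close together, at 353, 422 and 320 CPM.

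The lower level of the DNL genes was seen across the sham BA nuclei. After each nucleus was thinned to 800 UMIs, which left 4091 untreated, 2721 sham and 2836 denervated BA nuclei, the DNL genes together had a median of 39 UMIs per untreated, 14 per sham and 36 per denervated nucleus. Only 0.478% of sham nuclei reached the untreated median, and 90.8% lay below the 10th percentile of the untreated nuclei, beside 22.4% of the denervated ones. At this depth an Acly UMI was found in 92.3% of untreated (91.4 to 93.1), 33.3% of sham (31.5 to 35.1) and 75.9% of denervated BA nuclei (74.3 to 77.4). In EC nuclei the shares were 33.1% in the untreated and 10.5% in the sham library. Without thinning, the shares in BA nuclei were 95.1% and 45.1%. Without thinning, the EC shares were 27.8% and 7.57%. Thinning left out the nuclei with fewer UMIs, which were 264 untreated, 442 sham and 1578 denervated BA nuclei. Among EC nuclei it left out 3109 of 4512 untreated and 3550 of 4701 sham ones, so that EC shares at 800 UMIs describe the deeper nuclei.

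**Figure D3:**
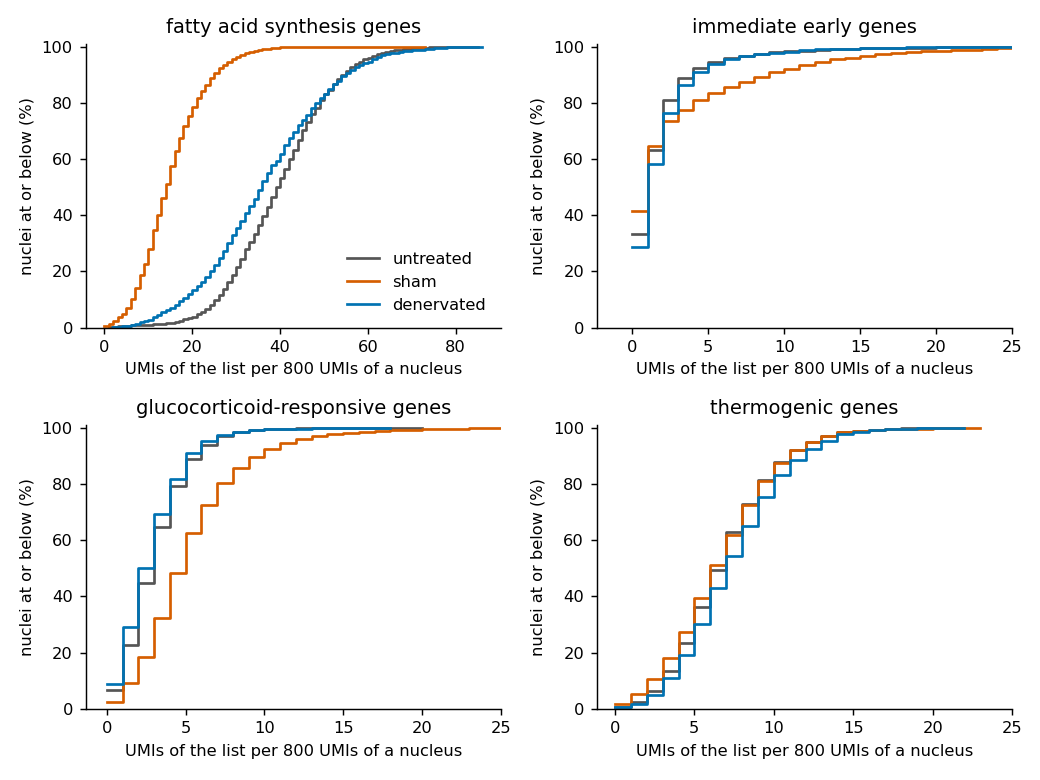
Cumulative share of BA nuclei (y axis, %) by the number of UMIs of a gene list among 800 UMIs of the nucleus (x axis) in the 3 libraries, for the fatty acid synthesis, immediate early, glucocorticoid-responsive and thermogenic lists. The sham curve of fatty acid synthesis is shifted left as a whole, from a median of 39 to 14 UMIs, while that of the immediate early genes crosses the others, with a 90th percentile of 9 against 4 UMIs.

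Genes of cholesterol synthesis and uptake were also mostly on the lower side, at low counts. Of 14 genes tested, 7 were at least 2-fold lower and 1 was at least 2-fold higher, beside 5.86% and 9.1% of all genes, with a median of −0.81. Of the 7, 6 reached 20 CPM in the untreated library only, so that the limit itself favoured this direction. The median ranged from −0.87 to −0.35 over the alternatives. Sqle, the squalene epoxidase, went from 35.6 CPM (281 UMIs) in the untreated to 3.95 CPM (17 UMIs) in the sham library, a ratio of −3.17 (−3.97 to −2.47). Cyp51, the lanosterol demethylase, went from 111 to 18.1 CPM, a ratio of −2.62 (−2.97 to −2.28), and Mvd, the mevalonate decarboxylase, from 26.2 to 3.26 CPM, a ratio of −3.01 (−3.91 to −2.23). Idi1, Lss and Insig1 were also past 2-fold, with ratios from −1.42 to −1.11. On the higher side were Scarb1, a receptor for HDL, at 1.23 (1.06 to 1.41), and, within 2-fold, the squalene synthase Fdft1 at 0.72 (0.58 to 0.87).

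Kit was among the 12 genes with the lowest ratios of all those with at least 50 CPM in either library, a level it reached in the untreated library only. The receptor gene (chr5:75574916-75656722, plus strand) stood at 326 CPM in untreated BA nuclei (313 to 338), 40.5 CPM in sham (34.7 to 46.9) and 194 CPM in denervated ones, so that the sham level was 8.05-fold lower than the untreated one. The log2 ratio was −3.01 (−3.24 to −2.79), and it stayed between −3.06 and −2.86 over the alternatives. After thinning to 800 UMIs, a Kit UMI was found in 20.7% of untreated (19.5 to 22.004), 3.16% of sham (2.54 to 3.89) and 13.9% of denervated BA nuclei (12.7 to 15.3). The shares in EC nuclei at this depth were 3.92% (2.97 to 5.07) and 1.04% (0.540 to 1.81) in the untreated and sham libraries. Without thinning, 38.4% of untreated and 4.74% of sham BA nuclei held a Kit UMI. The ratio in EC nuclei was −1.44, from 52.5 to 19.3 CPM, and the difference between BA and EC nuclei was −1.56 (−2.06 to −1.06).

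The ligand gene had another pattern. Kitl stood at 1354 CPM in untreated and 1240 CPM in sham EC nuclei, a ratio of −0.13. In BA nuclei it was low, at 27.0 and 57.0 CPM, a ratio of 1.08 (0.81 to 1.35) that came below 2-fold in 5 of the alternatives, with a lowest value of 0.81. Among the other receptor genes, the natriuretic peptide clearance receptor Npr3 was lower at −1.94 (−2.16 to −1.73) and the estrogen receptor gene Esr1 at −1.02 (−1.13 to −0.91). Igf1r, the receptor of insulin-like growth factor 1, was higher at 1.47 (1.23 to 1.70), and Acvr1c, an activin receptor of adipocytes, at 1.06 (0.98 to 1.14). With Kit and Kitl these made 3 higher and 3 lower of 17 genes tested, beside 9.1% higher and 5.86% lower among all genes.

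Several genes of glucose uptake and glycogen were lower, while most genes of insulin signalling and glucose use stayed within 2-fold. Of 27 genes of that list tested, 6 were at least 2-fold lower and 1 was at least 2-fold higher, beside 5.86% and 9.1% of all genes. The median was −0.34. Slc2a4, the insulin-regulated glucose transporter GLUT4, stood at 719 CPM in untreated, 291 CPM in sham and 458 CPM in denervated BA nuclei, a ratio of −1.31 (−1.40 to −1.22). Ppp1r3b, which brings protein phosphatase 1 to glycogen, went from 4902 to 1589 CPM, a ratio of −1.63 (−1.66 to −1.59), and Gbe1, the glycogen branching enzyme, from 1277 to 361 CPM, a ratio of −1.82 (−1.902 to −1.75). Hexokinase 2 (Hk2), Gsk3b and Ppp1r3c made up the 6, with ratios from −1.65 to −1.17. Slc2a5, the fructose transporter, is no member of the list and was among the 12 lowest genes, at 152 against 13.02 CPM, a ratio of −3.55 (−3.96 to −3.16).

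Irs2, the insulin receptor substrate, was the member on the higher side, at 27.1 CPM in untreated, 214 CPM in sham and 41.8 CPM in denervated BA nuclei. Its ratio of 2.98 (2.76 to 3.20) was among the 12 highest. The insulin receptor gene Insr stood at −0.05 and Irs1 at −0.27. After thinning, an Irs2 UMI was found in 2.15% of untreated (1.73 to 2.64) and 12.5% of sham BA nuclei (11.3 to 13.8), beside 0.641% and 1.82% of EC nuclei.

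The group of glucocorticoid-responsive genes stood highest among the pathway lists, with a median of 1.15. Of 17 genes tested, 10 were at least 2-fold higher and 0 at least 2-fold lower, beside 9.1% and 5.86% of all genes. Of the 10, 4 reached 20 CPM in the sham library only. Zbtb16, a transcription factor gene induced by glucocorticoids and by cold in brown fat (chr9:48654297-48836222, minus strand), stood at 57.7 CPM in untreated (52.5 to 63.2), 649 CPM in sham (625 to 673) and 116 CPM in denervated BA nuclei, a ratio of 3.49 (3.35 to 3.64). Its UMIs were found in 4.40% of untreated and 36.1% of sham nuclei at 800 UMIs. The metallothionein gene Mt2 went from 4.82 to 67.7 CPM, a ratio of 3.81 (3.32 to 4.34). Klf15, a glucocorticoid target and fasting factor kept in the list of adipocyte transcription factors, went from 5.45 to 57.7 CPM, a ratio of 3.40 (2.93 to 3.91), with 4.33 CPM in the denervated library. Over the alternatives the ratio ran from 3.12 to 4.16 for Mt2 and from 3.06 to 3.99 for Klf15.

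Well-known members of the group were not all higher. Fkbp5, a co-chaperone of the glucocorticoid receptor, was higher at 1.15 (0.71 to 1.598) on low counts of 80 and 97 UMIs. Tsc22d3, also known as GILZ, stood at −0.27 (−0.47 to −0.07), and Per1 at −0.02 (−0.40 to 0.36). The 10 genes past 2-fold were led by Mt2, Zbtb16, Angptl4, Mertk and Pdk4. EC nuclei had a median of 0.83 over the same list, with Zbtb16 at 27.2 and 399 CPM, a ratio of 3.87 that was slightly above that in BA nuclei. The difference was −0.38 (−0.75 to −0.03). The letters TGTTCT, which make up one side of a glucocorticoid receptor site, were held by 3 of 14 promoters of this list, or 21.4%, beside 14.2% of genes tested and 13.3% of those at least 2-fold higher. Of the holders Lpin1, Sult1a1 and Tsc22d3, Sult1a1 alone was at least 2-fold higher.

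Some of these genes also act in the switch from glucose to fatty acids. Pdk4, the kinase that shuts pyruvate dehydrogenase, stood at 518 CPM in untreated, 1808 CPM in sham and 483 CPM in denervated BA nuclei, a ratio of 1.80 (1.75 to 1.86). Angptl4, a secreted inhibitor of lipoprotein lipase, went from 50.6 to 355 CPM, a ratio of 2.81 (2.65 to 2.97). Among 18 genes of fatty acid oxidation, 5 were at least 2-fold higher and 2 at least 2-fold lower, beside 9.1% and 5.86% of all genes. The median was −0.0035. The higher genes included Pdk4, the peroxisomal enzyme Ehhadh at 2.52 (2.34 to 2.71), the long-chain acyl-CoA synthetase Acsl1 at 1.08 (1.03 to 1.13) and the medium-chain dehydrogenase Acadm at 1.02 (0.95 to 1.09). The 2 lower genes were Acsl5, a further acyl-CoA synthetase, at −2.33 (−2.48 to −2.19), and Hadh at −1.15 (−1.24 to −1.06).

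Genes of fatty acid uptake had a median above that of all genes, while those of release lay near it. Of 12 uptake genes, 5 were at least 2-fold higher and 1 was at least 2-fold lower, beside 9.1% and 5.86% of all genes. The median was 0.61. The list and the 5 include Angptl4, which inhibits lipoprotein lipase. The fatty acid transport protein gene Slc27a1 went from 165 to 582 CPM, a ratio of 1.81 (1.72 to 1.91), and Lrp1, a receptor for remnant lipoproteins, from 44.0 to 291 CPM, a ratio of 2.72 (2.55 to 2.90). Fabp4, the fatty acid binding protein of adipocytes, stood at 1123 and 2611 CPM, a ratio of 1.22 (1.18 to 1.26). Lpl, the lipoprotein lipase, stayed within 2-fold at 0.73 (0.69 to 0.77), as did the scavenger receptor Cd36 at −0.19 (−0.24 to −0.14).

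Of 12 genes of lipolysis and the lipid droplet, 2 were at least 2-fold higher and 0 at least 2-fold lower, near the shares of 9.1% and 5.86% among all genes, with a median of 0.08. Abhd5, the co-activator of the triglyceride lipase ATGL, stood at 48.9 and 155 CPM, a ratio of 1.67 (1.48 to 1.85), and Plin3 at 143 and 288 CPM, a ratio of 1.01 (0.89 to 1.12). Pnpla2, which encodes ATGL, had 494 and 856 CPM, a ratio of 0.79 (0.73 to 0.86), and the hormone-sensitive lipase Lipe had −0.12 (−0.17 to −0.07). The lipid droplet coat genes Plin2 and Plin4 lay on the lower side within 2-fold. Plin2 went from 954 to 526 CPM, a ratio of −0.86 (−0.93 to −0.79), and Plin4 from 323 to 172 CPM, a ratio of −0.91 (−1.03 to −0.80). Of 11 genes of triglyceride synthesis only the acyltransferase Agpat2 passed 2-fold, at −1.36 (−1.45 to −1.27). This is 0 higher and 1 lower, beside the same 9.1% and 5.86% of all genes.

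Immediate early genes, which cells switch on within minutes of a stimulus, were led by Fos, Fosb and Egr1 on the higher side. Of 20 genes tested, 9 were at least 2-fold higher and 3 at least 2-fold lower, beside 9.1% and 5.86% of all genes. The median was 0.69 and ranged from 0.35 to 1.21 over the alternatives. Of the 9, 2 (Fos and Fosb) reached 20 CPM in the sham library only, and 2 of the 3 in the untreated library only. Fos stood at 19.9 CPM in untreated (16.9 to 23.3), 253 CPM in sham (238 to 268) and 37.0 CPM in denervated BA nuclei, a ratio of 3.66 (3.42 to 3.92). Fosb went from 14.3 to 207 CPM, a ratio of 3.85 (3.57 to 4.15), and Egr1 from 63.9 to 429 CPM, a ratio of 2.75 (2.60 to 2.89). These ratios depended on the processing more than their intervals show. They ran from 2.98 to 4.49 for Fos, 3.21 to 4.47 for Fosb and 2.10 to 3.79 for Egr1, lowest with nuclei matched on UMIs and highest after ambient RNA was subtracted. Zfp36, Btg2, Atf3, Junb, Nr4a1 and Cyr61 followed at 1.83 to 1.10, while Ier3, Klf2 and Fosl2 were lower at −1.51 to −1.03. At the same time Jun stayed within 2-fold, at 0.77 (0.70 to 0.84).

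In contrast to DNL, these transcripts were concentrated in a share of the nuclei. At 800 UMIs the list had no UMI in 33.1% of untreated and 41.5% of sham BA nuclei, yet the 90th percentile was 4 UMIs in the untreated and 9 in the sham library. A Fos UMI was found in 1.49% of untreated (1.14 to 1.91), 11.2% of sham (10.05 to 12.5) and 2.26% of denervated BA nuclei at this depth. EC nuclei held a Fos UMI in 6.56% of untreated and 24.2% of sham nuclei at this depth, which few EC nuclei reached, and in 8.36% and 17.3% over all EC nuclei without thinning. For Egr1 the level of EC nuclei was 885 CPM in the untreated and 974 CPM in the sham library, a ratio of 0.14, and the difference between BA and EC nuclei was 2.61 (2.45 to 2.77). The share of EC nuclei with an Egr1 UMI differed more, at 23.3% and 33.8% without thinning and 20.7% and 43.3% at 800 UMIs. When the nuclei with white adipocyte markers were kept, the median of the list in BA nuclei was 1.07.

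Of 23 heat shock genes, 3 were at least 2-fold higher and 1 at least 2-fold lower, which is near the shares of 9.1% and 5.86% among all genes, with a median of 0.43. The co-chaperone Dnajb1 stood at 193 CPM in untreated, 718 CPM in sham and 137 CPM in denervated BA nuclei, a ratio of 1.896 (1.81 to 1.99). The small heat shock protein gene Hspb1 stood at 372, 1221 and 550 CPM, a ratio of 1.71 (1.65 to 1.78), and Hsp90aa1 at 546, 1174 and 807 CPM, a ratio of 1.11 (1.05 to 1.17). Hspa1a, the inducible member of the HSP70 family, had 0.55 (0.48 to 0.62) in BA nuclei and 1.46 in EC nuclei, and its ratio in BA nuclei ran from −0.28 to 1.01 over the alternatives. Of 20 genes of the unfolded protein response, 1 was at least 2-fold higher and 2 were at least 2-fold lower, also near these shares. Ddit3 was higher at 1.42 (1.30 to 1.53), Atf4 lower at −1.45 (−1.59 to −1.32) and Sesn2 lower at −1.55 (−2.13 to −1.01). Sesn2 reached 20 CPM in the untreated library only. The chaperone Hspa5 stood at −0.32 (−0.44 to −0.20).

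Promoters of the listed genes were searched for short motifs, on both strands, from 250 bases before to 50 bases after the start in RefSeq. The heat shock factor motif GAANNTTC was held by 11 of 19 heat shock genes with an entry, or 57.9%, beside 7.04% of 6422 genes tested with an entry. It was held by 6.93% of those at least 2-fold higher. The cAMP response element TGACGTCA was held by 3 of 17 immediate early genes (Btg2, Dusp1 and Maff), or 17.6%, beside 3.77% of genes tested, and by 2.01% of those at least 2-fold higher. Of these 3, Btg2 was past 2-fold. The AP-1 motif TGAGTCA was held by 0 of the 17, beside 4.14% of genes tested. Hspb1 and Btg2 are shown as examples of promoters with the motif of their list, the motif in capitals, from 200 bases before the start to the base before it (GRCm38.p6, 5′ to 3′). Hspb1 lies at chr5:135887719-135887918 on the plus strand and holds the motif 2 times, and Btg2 lies at chr1:134079156-134079355 on the minus strand.
Hspb1: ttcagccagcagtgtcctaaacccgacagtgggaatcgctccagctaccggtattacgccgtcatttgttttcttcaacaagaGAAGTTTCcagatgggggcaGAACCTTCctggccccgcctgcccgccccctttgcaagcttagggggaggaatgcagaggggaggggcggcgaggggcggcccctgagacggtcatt
Btg2: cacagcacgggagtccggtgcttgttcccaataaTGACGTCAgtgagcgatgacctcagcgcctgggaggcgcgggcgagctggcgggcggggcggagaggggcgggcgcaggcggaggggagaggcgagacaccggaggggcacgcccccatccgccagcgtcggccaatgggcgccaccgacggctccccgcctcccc

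The clock list leaned to the lower side, with a median of −0.43. Of 17 genes tested, 5 were at least 2-fold lower and 1 at least 2-fold higher, beside 5.86% and 9.1% of all genes. Bhlhe41 reached 20 CPM in the untreated library only and Npas2 in the sham library only, so that the limit fixed their direction. Bhlhe41, a repressor of the clock loop, went from 38.8 CPM (306 UMIs) to 5.12 CPM (22 UMIs), a ratio of −2.92 (−3.62 to −2.30), and its relative Bhlhe40 from 325 to 126 CPM, a ratio of −1.37 (−1.51 to −1.24). Cry1 stood at 70.8 CPM in untreated, 24.2 CPM in sham and 78.1 CPM in denervated BA nuclei, a ratio of −1.55 (−1.87 to −1.24). Tef, an output of the clock, had −1.11. Npas2, a partner of Arntl, was higher at 2.63 (2.37 to 2.90), from 19.5 to 121 CPM, and was higher in EC nuclei too, at 2.42. Nr1d1 stood at 0.91 (0.77 to 1.05), Per2 at −0.91 (−1.08 to −0.74) and Arntl at −0.05 (−0.18 to 0.08). The hour of sampling is not given for either library.

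The E-box of the clock, CACGTG, was held by 4 of 13 clock genes with a promoter entry (Bhlhe41, Cry1, Per1 and Tef), or 30.8%, beside 12.4% of genes tested. Of these 4, all but Per1 were at least 2-fold lower in sham BA nuclei, and Bhlhe41 reached 20 CPM in the untreated library only. The share among all genes at least 2-fold lower was 15.8%. The promoter of Cry1 is shown as an example, with the E-box in capitals, at chr10:85185065-85185254 on the minus strand of GRCm38.p6.
Cry1: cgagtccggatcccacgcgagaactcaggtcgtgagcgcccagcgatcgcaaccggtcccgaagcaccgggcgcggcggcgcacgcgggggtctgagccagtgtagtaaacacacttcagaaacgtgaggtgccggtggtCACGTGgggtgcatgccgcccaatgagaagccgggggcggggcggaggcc

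The thermogenic genes as a group lay near the median of all genes. Of 20 genes tested, 1 was at least 2-fold higher and 1 at least 2-fold lower, beside 9.1% and 5.86% of all genes. The median was 0.01 and lay between −0.10 and 0.10 over the alternatives. Ucp1 (chr8:83290352-83298452, plus strand) stood at 353 CPM in untreated (340 to 366), 422 CPM in sham (403 to 442) and 320 CPM in denervated BA nuclei, a ratio of 0.26 (0.17 to 0.35). The coactivator gene Ppargc1a had −0.54 (−0.65 to −0.42), and Dio2, the deiodinase that activates thyroid hormone, had 0.20 (−0.15 to 0.56). The genes past 2-fold were the acyl-CoA synthetase and fatty acid transport protein Slc27a2 at 2.24 (2.004 to 2.47) and the thioesterase Acot11 at −1.51 (−1.58 to −1.43). Summed per nucleus at 800 UMIs, the list had a median of 7 UMIs in the untreated, 6 in the sham and 7 in the denervated library. Of 29 nuclear genes of oxidative phosphorylation and the citrate cycle, Uqcrfs1 alone passed 2-fold, at −1.08 (−1.23 to −0.94). None of 28 ribosomal protein genes and none of 7 listed interferon-responsive genes tested passed 2-fold in either direction, with medians of 0.09 and 0.06. Ifi27l2a, an interferon-stimulated gene outside that list, was among the 12 highest genes. It stood at 26.2 CPM in untreated, 220 CPM in sham and 183 CPM in denervated BA nuclei, a ratio of 3.07 (2.85 to 3.29), and at 56.8 and 266 CPM in EC nuclei, a ratio of 2.23.

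Of the receptors that drive thermogenesis, Adrb3 was higher and Adrb1 lower in the sham library. Adrb3, the main beta-adrenergic receptor of mouse adipocytes, stood at 592 CPM in untreated (575 to 609), 1793 CPM in sham (1753 to 1833) and 614 CPM in denervated BA nuclei, a ratio of 1.598 (1.55 to 1.65). It ran from 1.55 to 1.72 over the alternatives. Adrb1 went from 145 to 49.8 CPM, a ratio of −1.54 (−1.76 to −1.33). Of the adenylyl cyclases that make cAMP, Adcy9 was higher at 1.37 (1.23 to 1.51), from 92.8 to 240 CPM, and Adcy5 at 3.57 (2.78 to 4.46), on 15 and 97 UMIs. Of 25 genes of adrenergic and cAMP signalling tested, 4 were at least 2-fold higher and 1 was at least 2-fold lower, beside 9.1% and 5.86% of all genes, with a median of 0.21. Of the 4, 2 reached 20 CPM in the sham library only.

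**Figure D4:**
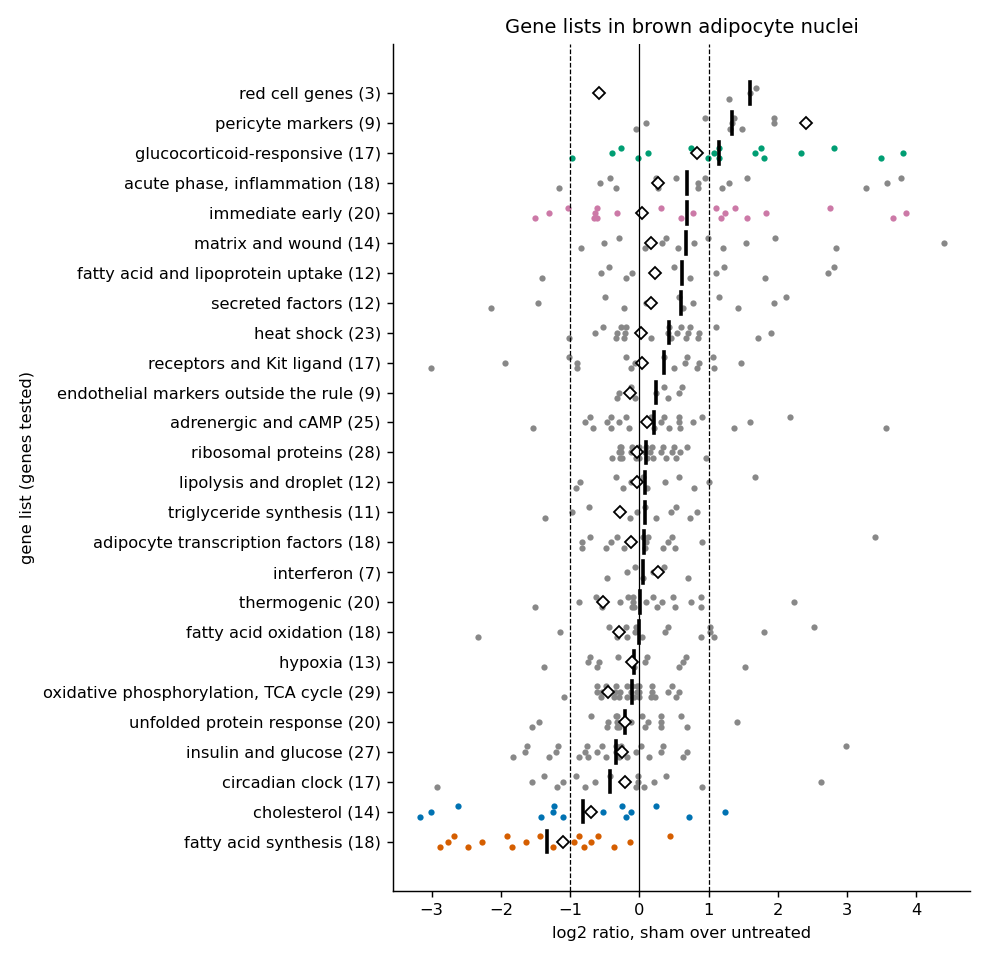
Log2 ratio of sham over untreated in BA nuclei (x axis) for each tested member (points) of 26 gene lists (y axis, with the number of genes tested), with the list median as a bar, the median in EC nuclei as an open diamond and dashed lines at 2-fold. Fatty acid synthesis lies lowest, at a median of −1.34, and the thermogenic list lies at 0.01.

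Secreted products differed by gene. Leptin (Lep) went from 129 to 29.3 CPM, a ratio of −2.14 (−2.42 to −1.87), with 128 CPM in the denervated library, and the retinol carrier Rbp4 from 45.6 to 16.5 CPM, a ratio of −1.47 (−1.86 to −1.10). Adipsin (Cfd) went from 179 to 686 CPM, a ratio of 1.94 (1.85 to 2.03), and in EC nuclei from 193 to 667 CPM, so that its levels were alike in both kinds of nuclei. Lep and Npr3 are also markers of white adipocytes, and with Ccdc80 they made up nearly all UMIs of the white adipocyte genes outside the rule. Of 11 such genes listed, the tables held 6 in untreated, 7 in sham and 6 in denervated BA nuclei, which summed to 572, 235 and 785 CPM. These are levels after every nucleus with a white marker of the rule was removed. Igfbp3 and Angptl2 were also at least 2-fold higher, on levels of at most 75.3 CPM. Of 12 secreted factors tested, 4 were at least 2-fold higher and 2 at least 2-fold lower, beside 9.1% and 5.86% of all genes. Of the 4, 2 reached 20 CPM in the sham library only, among them Igfbp3 at 4.82 and 20.9 CPM. Rbp4 reached it in the untreated library only.

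Some genes of the acute phase, of inflammation and of the matrix were higher from low levels, while most members of both lists stayed within 2-fold. Socs2, an inhibitor of growth hormone and cytokine signals, stood at 6.34 CPM in untreated (4.71 to 8.36), 87.4 CPM in sham (78.8 to 96.7) and 8.65 CPM in denervated BA nuclei, a ratio of 3.79 (3.36 to 4.24), while EC nuclei had 126 and 118 CPM. Over the alternatives this ratio ran from 3.50 to 6.08, the highest after ambient RNA was subtracted. The complement gene C4b went from 3.80 to 45.3 CPM and Nnmt from 2.54 to 24.4 CPM. Of 34 genes of this list, 18 were tested. Of these, 6 were at least 2-fold higher and 1, Il6ra, was at least 2-fold lower, beside 9.1% and 5.86% of all genes. Socs2, C4b and Nnmt reached 20 CPM in the sham library only. The same holds for all 5 of the 24 matrix and wound genes that were at least 2-fold higher, so that their direction was fixed by the limit and their values are a description. Thbs1, which encodes thrombospondin 1, went from 1.39 CPM (11 UMIs) to 29.5 CPM (127 UMIs), a ratio of 4.40 (3.52 to 5.44), and Postn from 14.8 to 57.7 CPM.

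Pericyte markers were higher as well. Of 9 pericyte genes tested in BA nuclei, 6 were at least 2-fold higher in the sham library, beside 9.1% of all genes. The median was 1.34, and the median in EC nuclei was 2.41. Of the 6, 3 reached 20 CPM in the sham library only. Over all 10 genes of that list the sum was 2241 CPM in untreated and 2807 CPM in sham BA nuclei, most of it from Ebf1, which adipocytes express too. Pdgfrb, a defining pericyte gene, stood at 11.8 and 45.3 CPM in BA and at 12.6 and 99.8 CPM in EC nuclei. Macrophage markers summed to 23.0 and 30.2 CPM and neutrophil markers to 2.66 and 1.86 CPM in untreated and sham BA nuclei. In EC nuclei macrophage markers summed to 31.1 and 108 CPM and lymphocyte markers to 109 and 236 CPM, and their part in the EC ratios was not tested. Without the nuclei that held a marker of another cell type, Socs2 stayed past 2-fold, the DNL median was −1.31 and the glucocorticoid median 1.09. Red cell transcripts, of 4 globin genes and Alas2, summed to 55.4 CPM in untreated and 151 CPM in sham BA nuclei, and to 994 and 559 CPM in EC nuclei. The part of pericyte and red cell RNA in the other genes was not tested.

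Several of the lowest genes belong to no list. Gm8126, a gene model with no assigned function, had 466 UMIs in untreated and 2 UMIs in sham BA nuclei, a ratio of −6.99 (−10.04 to −5.13), and 63.4 CPM in the denervated library. Tubb2a, a beta-tubulin, stood at 69.0 and 5.12 CPM, a ratio of −3.75 (−4.44 to −3.14), and Pgm3, an enzyme of the hexosamine pathway, at 124 and 12.1 CPM, a ratio of −3.36 (−3.79 to −2.96) that ran from −3.57 to −2.66 over the alternatives. Prune2, Ccdc9b, Camk2b, Ptpru, Grip1 and the long noncoding RNA Pvt1 completed the 12 lowest genes with Slc2a5, Kit and Acly, at −3.41 to −3.01. Of these 12, all but Acly reached the limit of 50 CPM in the untreated library only, so that it favoured their direction. Of the 12 highest genes, Fos, Fosb, Klf15, Mt2 and Irs2 were among those that reached it in the sham library only. On the other side, Slc4a4, the sodium bicarbonate cotransporter, was the most abundant of the 12 highest genes. It stood at 166 CPM in untreated (157 to 175), 1710 CPM in sham (1671 to 1749) and 252 CPM in denervated BA nuclei, a ratio of 3.36 (3.28 to 3.45), and its UMIs were found in 11.2% of untreated and 66.8% of sham nuclei at 800 UMIs.

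The comparison with EC nuclei showed where the ratio of sham over untreated differed between both kinds of nuclei. Of 6856 genes tested in both kinds of nuclei, 305 were at least 2-fold higher and 134 at least 2-fold lower in sham EC nuclei, and the log2 ratio of BA nuclei differed from that of EC nuclei by at least 1 in 729, or 10.6%, of which 362 were positive and 367 negative. This count was 1571 after ambient RNA was subtracted and 1197 after thinning to 800 UMIs. Of the 740 genes that were higher in sham BA nuclei, 512 could be compared, of which 137 were also at least 2-fold higher in EC nuclei and 196 differed by at least 1. Of the 477 lower genes, 319 could be compared, 62 were also at least 2-fold lower and 130 differed by at least 1.

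The largest differences were taken among genes that reached 50 CPM in either library in both kinds of nuclei. The largest positive ones were those of Socs2 at 3.88 (3.41 to 4.39), Ing1 at 2.84 (2.43 to 3.27), Fos at 2.71 (2.43 to 2.99), Ston1 at 2.70 (2.30 to 3.12) and Egr1 at 2.61. In these genes the EC level was above that of untreated BA nuclei in both libraries. The sham BA level passed the sham EC level for Ing1 and Ston1 and stayed below it for Socs2, Fos and Egr1. Ing1, a chromatin reader, for example stood at 15.1 and 69.5 CPM in BA and at 92.8 and 59.5 CPM in EC nuclei. Among the largest negative differences, Tubb2a, Gfod1, Lfng and Scd2 were lower in sham BA nuclei, with differences from −2.84 to −2.27 (the BA ratio of Gfod1 ran from −3.86 to −2.17 over the alternatives), while Fst, Pde3a, Dock10 and Zeb2 were higher in sham EC nuclei. Lfng, a glycosyltransferase that modifies Notch, went from 217 to 30.9 CPM in BA nuclei, a ratio of −2.81 (−3.07 to −2.55), and from 94.1 to 66.1 CPM in EC nuclei. Fst, the activin-binding follistatin, was higher in BA nuclei at 1.98 (1.67 to 2.29), but only 0.18 remained without the nuclei that held a marker of another cell type. In BA nuclei Socs2, Ing1, Fos and Fst reached 50 CPM in the sham library only, and Tubb2a, Gfod1, Lfng and Dock10 in the untreated library only. In EC nuclei Fst, Pde3a and Dock10 reached it in the sham library only. The limit thus favoured the direction of these ratios.

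**Figure D5:**
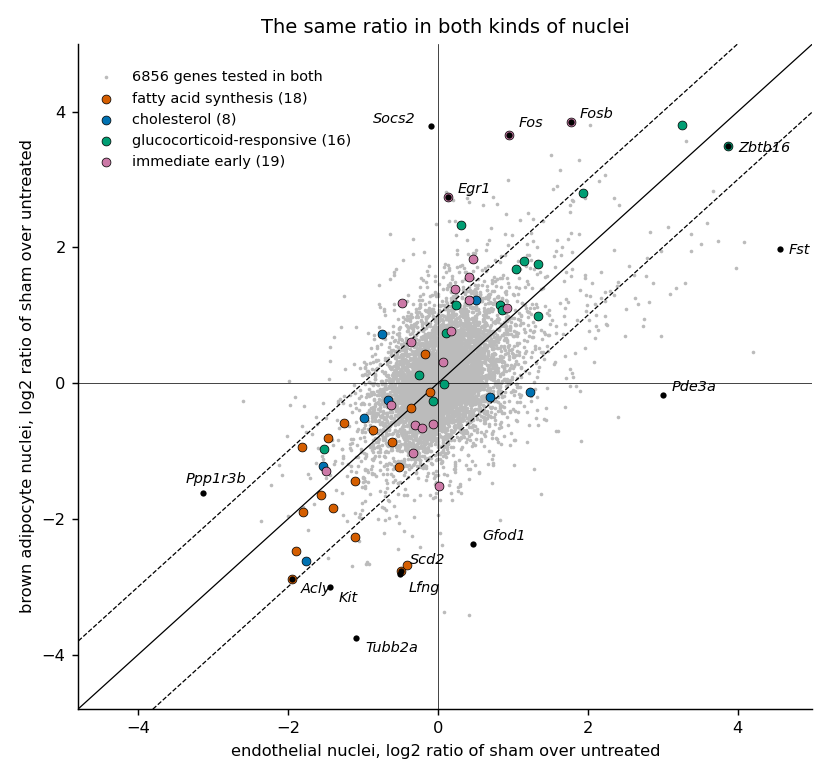
Log2 ratio of sham over untreated in BA nuclei (y axis) against that in EC nuclei (x axis) for the 6856 genes tested in both, with the 4 lists in colour, the line of equal ratios and dashed lines at a difference of 1. Zbtb16 lies high in both, Fos, Egr1 and Socs2 lie above the line of equal ratios, and most fatty acid synthesis genes are below 0 in both.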

How the data were processed

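Nuclei of interscapular BAT were profiled on BD Rhapsody, with 1 library for each condition and no replicates. The deposited values are raw UMI counts, 1 for each barcode and gene. Per the file headers of the untreated and denervated tables, they came from the BD WTA Rhapsody pipeline 1.9-nuclei with GRCm38 and GENCODE vM19. The sham table had no header, and the submitters' notes name GRCh38 and Seurat 4.0.6. The removal of debris and of ambient RNA that the study describes was not repeated, and no doublet caller was run.

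UMIs of the chosen nuclei were summed per library without mitochondrial genes (7886130 untreated, 4300932 sham and 4622380 denervated BA UMIs) and scaled to CPM. Genes with at least 20 CPM in either library were held against a line of 2-fold on the log2 scale. With 1 library per condition no p-value was computed. Intervals are 95% exact Poisson for levels, exact conditional binomial for ratios and Clopper-Pearson for shares, and the interval of a difference combines those of both ratios. Gene positions are from GENCODE vM21 on GRCm38, and promoters from the RefSeq table of GRCm38.p6. The scripts were tested on simulated data.

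The members and gene lists were chosen with earlier results of these data known. Genes were named as the 12 highest and 12 lowest ratios at 50 CPM or more in either library, and the 8 largest differences from EC nuclei each way. For the differences, 50 CPM had to be reached in either library in both kinds of nuclei. Also named were up to 4 genes of each list with the largest ratios in size, a few genes that define each list, and the genes the study names for these libraries. Some genes that meet this rule are not reported here. Other listed genes given as examples were chosen after their values were seen. Nuclei, scaling, weighting, the CPM limit and ambient RNA were varied in 15 alternatives. Python 3.11.15, numpy 2.4.6, scipy 1.17.1, pandas 2.3.3 and matplotlib 3.10.9 were used.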

Additional observations from a re-analysis of the deposited data

Results flagged for a closer look

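In 4 genes the BA and EC nuclei of the same libraries moved in opposite directions, each by at least 2-fold. Apobec1, the RNA-editing deaminase, went from 56.8 CPM in untreated to 18.4 CPM in sham BA nuclei and from 14.9 to 38.6 CPM in EC nuclei, a difference of −3.0006 on the log2 scale. The beta-globin gene Hbb-bs went from 16.4 to 40.0 CPM in BA and from 318 to 133 CPM in EC nuclei, a difference of 2.55. Hbb-bs is a red cell gene, and the summed red cell genes moved the same way. They went from 55.4 to 151 CPM in BA and from 994 to 559 CPM in EC nuclei. The part of red cell RNA here was not tested. Lamc3, a laminin chain, went from 44.0 to 18.4 CPM in BA and from 10.4 to 25.2 CPM in EC nuclei, a difference of −2.54. Pid1 went from 257 to 112 CPM in BA and from 26.6 to 54.0 CPM in EC nuclei, a difference of −2.22. Apobec1 and Lamc3 reached 20 CPM in BA nuclei in the untreated library only and in EC nuclei in the sham library only. Hbb-bs reached it in BA nuclei in the sham library only. The limit thus favoured the direction of these genes, while Pid1 passed it in both libraries and both kinds of nuclei. With 1 library per condition the difference was not tested.

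Mitochondrial genes, which were left out of the sums, took 6.31% of the UMIs of sham BA nuclei, beside 3.14% in untreated and 1.87% in denervated ones.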

How the results depend on the processing

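No paired analysis was possible because each condition is 1 library and no result comes from a test. The alternatives for single genes were run for the extreme, pathway-defining and study-named genes, not for the further genes of each list. Of these, 41 were past 2-fold. None of the 41 changed sign, and 39 stayed past 2-fold in all 13 alternatives, the exceptions being Fst (0.18) and Kitl (0.81 to 0.97). Of the genes within 2-fold, Hspa1a, Per1, Dio2 and Lipe changed sign in some alternatives. The 740 higher, 477 lower and 729 differing genes became 1225, 838 and 1610 at 5 CPM, 221, 183 and 137 at 100 CPM, and 1670, 1165 and 2112 at 1.5-fold. The 729 also became 1197 after thinning and 1571 after ambient RNA was subtracted. The median of fatty acid synthesis was −1.24 at 5 CPM and −1.44 at 100 CPM. The cholesterol median of −0.81 was −0.46 with at least 5 adipocyte UMIs, −0.38 with nuclei matched on UMIs, −0.35 after thinning, −0.49 as a mean over nuclei, −0.52 at 5 CPM and −0.36 at 100 CPM. The glucocorticoid median was 1.37 with white-marker nuclei kept and 0.99 at 5 CPM. The immediate early median was 1.07 with these nuclei kept, 0.35 with nuclei matched on UMIs, 0.99 at 5 CPM and 1.21 at 100 CPM. Shares of untreated and sham BA nuclei with a UMI were 13.6% and 1.63% for Kit, 82.6% and 22.9% for Acly, and 1.03% and 9.64% for Fos at 500 UMIs. Without thinning they were 38.4% and 4.74%, 95.1% and 45.1%, and 2.80% and 15.7%. The cause of these shifts was not tested. Sham BA nuclei were shallower, at a median of 1327 against 1788 UMIs, and genes near 20 CPM rest on fewer than 200 UMIs per library.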
